A study of Homo sapiens with 4 samples.

Results

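The genes described here are 46 genes of autophagy and the lysosome, taken as a list of names from the count table. The list sets no threshold on a measured value, but it was drawn up with earlier results of these data known. All 46 were among the 18066 genes with at least 1 count in the 4 libraries. They were ordered by role into 8 groups, namely 5 genes of the ATG8 family, 3 cargo receptors, 11 genes of initiation and membrane supply, 5 of conjugation, the regulator *TFEB*, 4 lysosomal membrane genes, 11 genes of lysosomal hydrolases and other lumen proteins, and 6 V-ATPase subunits.

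RNA was sequenced from BT-16 and CHLA-266, established patient-derived cell lines of atypical teratoid/rhabdoid tumor of the MYC subgroup (AT/RT-MYC), with 1 library per cell line and condition. Untreated cells received no drug. Treated cells received 1 µM doxorubicin, then 5 µM etoposide, then 1 µM vincristine on consecutive days. Most treated cells died, and the survivors were harvested after they had grown again, so treated libraries hold regrown cells weeks after exposure rather than cells under acute drug stress.

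Autophagy encloses cytoplasm in a double membrane, the autophagosome, and delivers it to the lysosome. The ULK kinase complex and a lipid kinase complex around Beclin start the membrane, a conjugation system attaches ATG8 proteins to it, and cargo receptors bind both the cargo and ATG8. The V-ATPase acidifies the lysosome, where hydrolases degrade the cargo, and the transcription factors TFEB and MITF can switch on many of these genes through a short promoter element around CACGTG.

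The RefSeq promoter table held an entry for 37 of the 46 genes, each window running from 250 bases before to 50 bases after an annotated start on GRCh38.p14. The 6 genes whose windows held TCACGTGA, a palindrome that contains CACGTG and resembles the element read by TFEB, are shown with 1 match each because they spread over 4 of the groups compared below. Letters are given 5′ to 3′ along the gene's strand, and capitals mark the match.
LAMP1, chr13:113297202-113297225, plus strand: ccgcgggaTCACGTGAcgcccggg
MCOLN1, chr19:7522601-7522624, plus strand: ctaccgggTCACGTGAccgaggca
CTSA, chr20:45891301-45891324, plus strand: gccggagtTCACGTGActcgtaca
GAA, chr17:80101541-80101564, plus strand: cccgccggTCACGTGAcccgcctc
ATP6V0D1, chr16:67481202-67481225, minus strand: ccttatggTCACGTGAggcgcttg
ATG3, chr3:112561943-112561966, minus strand: gtctagtgTCACGTGAggccccgg

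On either strand, CACGTG was found in 10 of the 37 genes (27.0%), against 10.8% of the 14383 tested genes with a promoter entry. TCACGTGA was found in 6 of 37 (16.2%), against 1.66%. By group, CACGTG was in 3 of 4 lysosomal membrane genes (*LAMP1*, *CD63*, *MCOLN1*), 4 of 7 hydrolase and lumen genes (*CTSA*, *CTSD*, *GAA*, *NEU1*), 1 of 3 V-ATPase subunits (*ATP6V0D1*), 1 of 10 initiation genes (*ATG14*), 1 of 5 conjugation genes (*ATG3*), and none of the windows of 4 ATG8 genes and 3 cargo receptors. *LAMP1* alone held 6 matches. TGACNNNGC, the core of the antioxidant response element, was found in 10 of 37 (27.0%), against 18% of tested genes, and its matches in *LAMP1* and *GAA* overlap CACGTG. Of the genes with an entry, 7 of 18 upregulated ones (38.9%) and 3 of 19 not called (15.8%) held CACGTG. TGACNNNGC gave the same counts, 7 of 18 and 3 of 19, and was in 6 of 7 hydrolase and lumen genes (85.7%). These differences were not tested. The split by call is not independent of the groups. In edgeR, 14 of 21 lysosomal membrane, lumen, and V-ATPase genes were upregulated, beside 16.1% of all genes. Among ATG8, receptor, initiation, and conjugation genes it was 9 of 24. *GAA*, which held both motifs, counts as not called at an adjusted p of 0.0502 in edgeR. These matches are letters in a window, and no binding was measured.

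Across the 46 genes, treated cells had more RNA of this pathway than untreated cells. Upregulated genes numbered 23 and downregulated genes 0 in edgeR's quasi-likelihood test at an adjusted p value under 0.05, while 16.1% of all 18066 genes were upregulated and 19.1% downregulated. Among the 23 upregulated genes were 3 ATG8 genes, 3 cargo receptors, 3 initiation genes, 2 lysosomal membrane genes, 7 hydrolase and lumen genes, and 5 V-ATPase subunits. The median log2 fold change of the 46 was 0.59, against 0.24 over all genes. Their summed CPM, that is counts scaled to library size, went from 3786 to 7589 in BT-16 and from 3532 to 8075 in CHLA-266. Abundant genes weigh most in this sum, and *PSAP* alone went from 706.5 to 2013 and from 616.9 to 2493. The sum of the conjugation genes went from 289.6 to 281.4 and from 310.9 to 280.7. In bulk RNA, a change in the number of cells of a type and a change in RNA per cell cannot be told apart.

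Libraries of a cell line are pairs, and a block for that pairing in edgeR gave 29 upregulated and 2 downregulated genes (*ATG3* and *ATG7*), with 17.9% and 23.7% over all genes. The further upregulated genes under the block were *RB1CC1*, *ATG13*, *BECN1*, *NPC1*, *GAA*, and *NPC2*. Both treated libraries lay above both untreated libraries for 36 of the 46 genes, as for 40.2% of all genes, and below them for 3 (*ULK2*, *ATG3*, *ATG7*), as for 32.3% of all genes. With 2 libraries per condition, an exact permutation test cannot give a two-sided p below 0.333. The adjusted p values measure the spread between 2 cell lines, each sequenced once per condition.

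The median of all genes includes many that are close to 0 before treatment. Among the 12620 genes that reached 10 counts in each library, the median log2 fold change was -0.18, with 12.3% upregulated and 27.3% downregulated, and 45 of the 46 genes, all but *MAP1LC3A*, were among them. Relative to that median, the 46 genes had a median log2 fold change of 0.77. Scaling shifts both medians alike, so this difference could hardly change with the scaling. With the 4 libraries it ranged from 0.72 with limma to 0.78 with the filter of 10 counts. Leaving out 1 library gave 0.69 to 0.88.

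**Figure D1:**
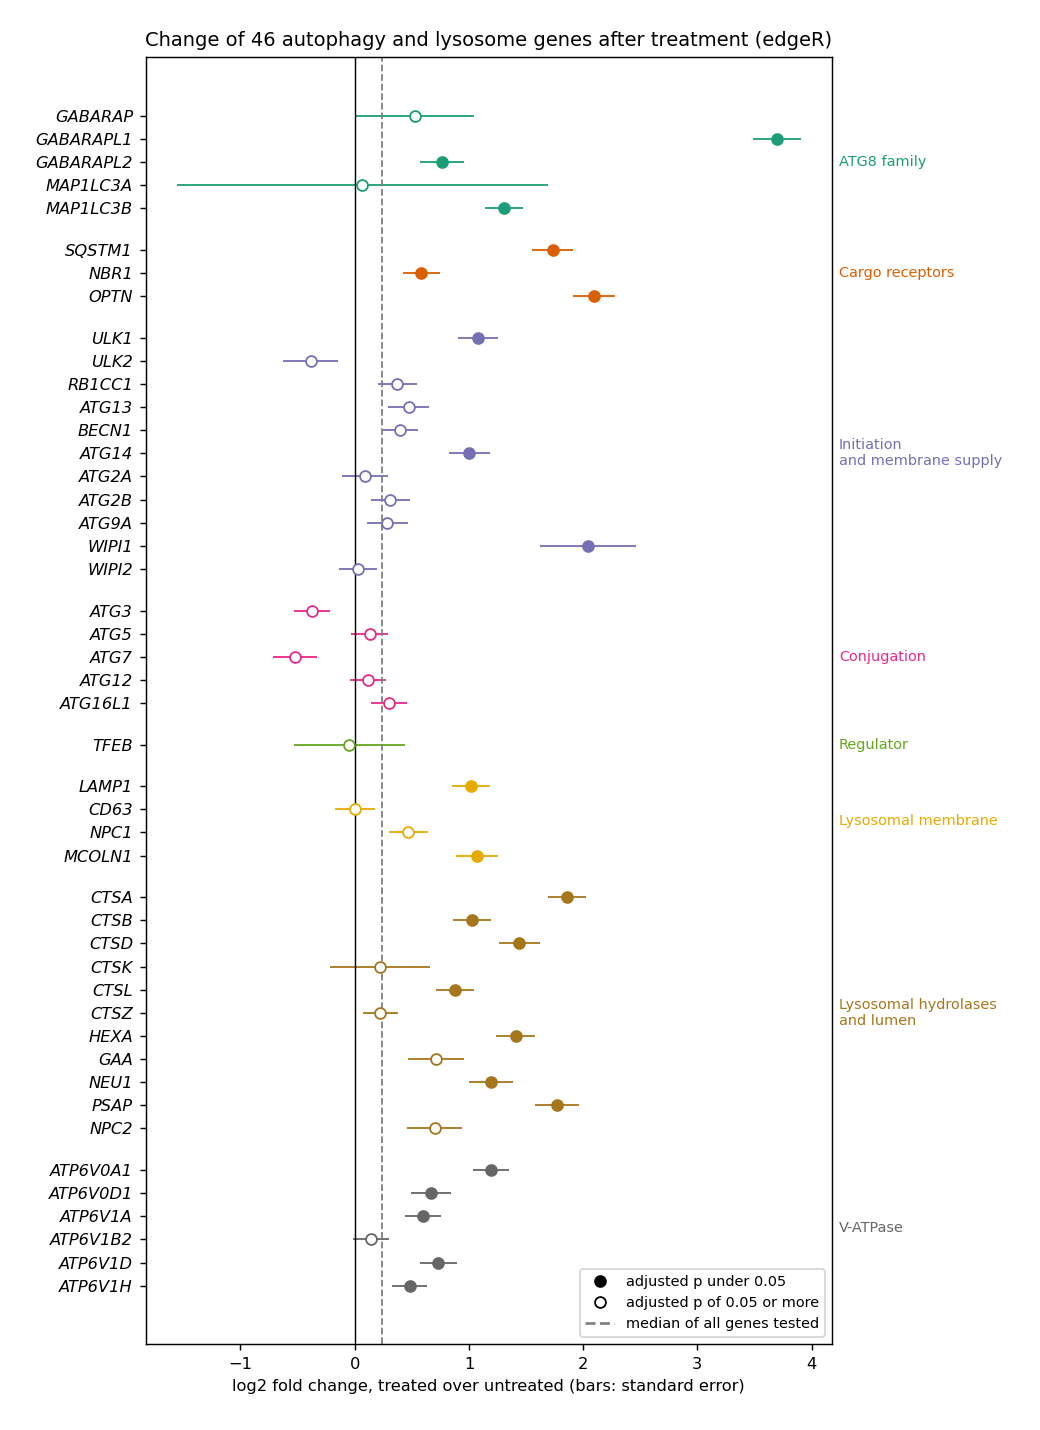
log2 fold change of each of the 46 genes, treated over untreated, on the horizontal axis, with standard errors as bars and genes grouped by role. Filled points passed an adjusted p value of 0.05, the dashed line is the median of all genes tested, and the filled points all lie to the right of 0, from *ATP6V1H* at 0.48 to *GABARAPL1* at 3.69.

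Facts of the libraries bear on every gene below. Total counts ranged from 49849257 to 75087193, and treated libraries were the shallower ones. The number of genes with at least 1 count went from 16079 to 17815 in BT-16 and from 15464 to 17114 in CHLA-266. The 95th percentile of 335 olfactory receptor genes, which these cells should not express, went from 0.0605 to 0.541 CPM per kilobase of exon in BT-16 and from 0.0712 to 0.454 in CHLA-266. At or below that level in the treated libraries were *MAP1LC3A*, *TFEB*, and *CTSK* in BT-16 and *MAP1LC3A* and *TFEB* in CHLA-266. Counts of *SMARCB1*, the gene whose loss defines AT/RT, ranged from 827 to 1394. Those of *VIM*, a mesenchymal filament gene typical of these tumors, ranged from 73439 to 120804, with log2 ratios of -0.33 in BT-16 and 0.29 in CHLA-266. Of the 4 genes checked for the cell lines, *MYC* (-0.59, adjusted p = 0.0289 in edgeR) and *SMARCA4* (-0.56, adjusted p = 0.0498) were downregulated, beside 19.1% of all genes. Of 8 other fits with the 4 libraries, 5 kept the call of *MYC* and 3 that of *SMARCA4*. Neither call held whichever library was left out. The log2 fold changes then ranged from -0.73 to -0.45 for *MYC* and from -0.78 to -0.36 for *SMARCA4*. Because lysosomal genes are abundant in macrophages, 13 macrophage markers were measured. Their summed level went from 6.77 to 14.4 CPM in BT-16 and from 3.80 to 11.4 CPM in CHLA-266. Lower after treatment were *PTPRC* in BT-16 (287 to 167 counts), and *CSF1R* (166 to 98) and *FCER1G* (17 to 0) in CHLA-266. The other markers, 12 in BT-16 and 11 in CHLA-266, were higher. *AIF1*, *C1QB*, and *C1QC* were at 0 in both untreated libraries. The part of the markers in the results was not tested. Of the 13, 4 were upregulated (*ITGAM*, *AIF1*, *CD163*, *C1QA*), beside 16.1% of all genes. In treated BT-16 all 4 lay below the olfactory receptor level, at 0.157 to 0.376 CPM per kilobase, as did *CD163* and *C1QA* in treated CHLA-266, at 0.209 and 0.313. *ITGAM* kept its call whichever library was left out, while *C1QA* lost it each time (adjusted p from 0.0592 to 0.321 in edgeR), *CD163* without either CHLA-266 library (0.0713 and 0.101), and *AIF1* without treated CHLA-266 (0.0916).

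In what follows, each pair of counts gives BT-16 first and CHLA-266 next, and errors of log2 fold changes are standard errors. The ATG8 family encodes small ubiquitin-like proteins that are attached to the autophagosome membrane. Untreated levels of *GABARAPL1* were 1.23 and 1.07 CPM per kilobase of exon, and treated levels were 13.6 and 16.1. It was upregulated 12.9-fold (log2 fold change 3.69 ± 0.21, adjusted p = 7e-06 in edgeR), with every treated library about an order of magnitude above every untreated one. This was the highest log2 fold change of the 46 genes. *MAP1LC3B*, which encodes LC3B, the common marker protein of autophagosomes, had untreated counts of 9066 and 8719 and treated counts of 18217 and 18746. Its log2 fold change was 1.31 ± 0.17 (adjusted p = 0.000709), and reads of the near copy *MAP1LC3B2* could be split between both genes. *GABARAPL2* had untreated counts of 5283 and 4364 and treated counts of 8384 and 5478, a log2 fold change of 0.76 ± 0.19 (adjusted p = 0.0153). Its call was lost without treated BT-16 (log2 fold change 0.52, adjusted p = 0.0621) and without untreated CHLA-266 (0.71, adjusted p = 0.0730).

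The remaining family members were scarce and did not pass the test. Untreated counts of *GABARAP* were 115 in either line and treated counts 184 and 99, a log2 fold change of 0.53 ± 0.51 (adjusted p = 0.435 in edgeR). After scaling, both treated libraries lay above both untreated ones, in CHLA-266 by 0.976 against 0.958 CPM per kilobase, and 48.2% of the exon bases of *GABARAP* overlap another annotated gene, so its level is uncertain. *MAP1LC3A* had untreated counts of 9 and 12 and treated counts of 13 and 6, at or below the background level of olfactory receptor genes in both treated libraries.

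Levels per kilobase divide by all annotated exons of a gene rather than by the transcripts expressed, so comparisons between genes, shares, and ranks are approximate. On this scale the 5 ATG8 genes together had 53.7 and 53.9 CPM per kilobase without treatment and 126.2 and 123.9 after it. In each condition the family total was thus nearly the same in both cell lines. The make-up of the total was not the same before and after. *GABARAPL1* made up 2.30% and 1.98% of it without treatment and 10.8% and 13.0% after it. *GABARAPL2* made up 47.3% and 43.7% before and 38.2% and 28.3% after, while *MAP1LC3B* stayed the leading member, with 48.6% and 52.2% before and 49.6% and 57.8% after. These shares are descriptions and were not tested.

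**Figure D2:**
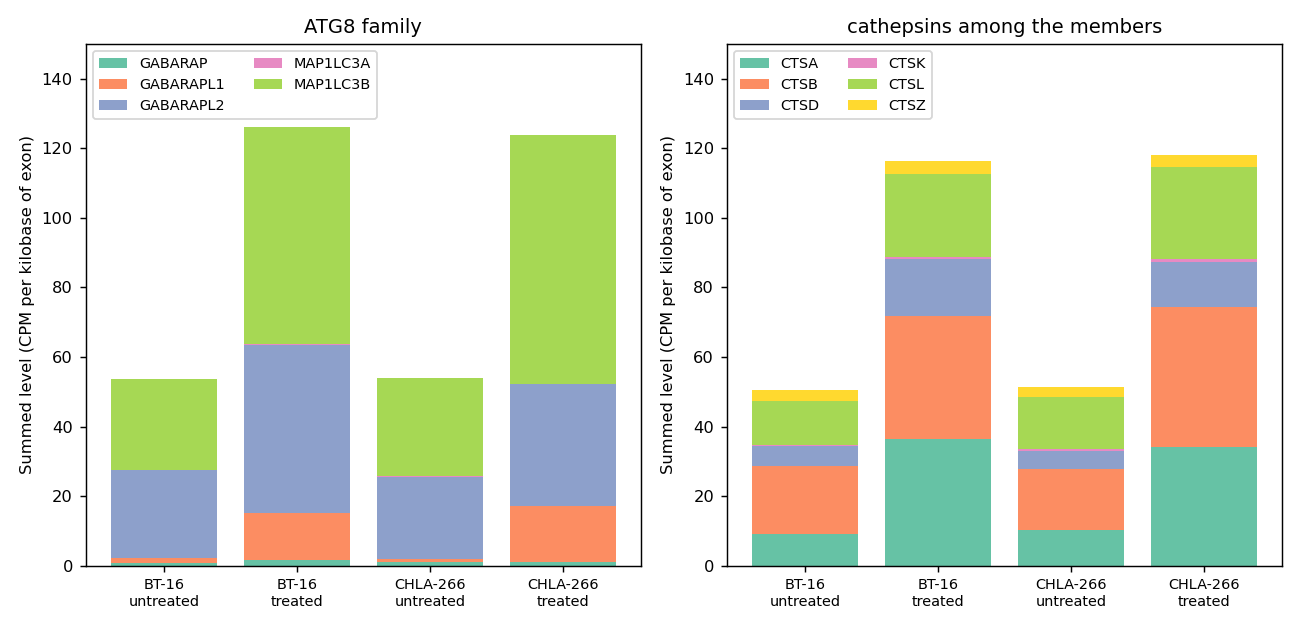
Summed level of the 5 ATG8 genes (left) and of the 6 cathepsin genes among the 46 (right) in each of the 4 libraries, in CPM per kilobase of exon, with colored segments for the genes. Both totals are higher in the treated bars, 126.2 and 123.9 for the ATG8 family and 116.3 and 118.2 for the cathepsins, and the segments of *GABARAPL1* and *CTSA* take a larger part of them.

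All 3 cargo receptors among the 46 genes were upregulated, and in each the treated libraries lay above the untreated ones. Outside the 46, 14 other ATG8 and receptor genes were measured, with a median log2 fold change of 0.30. Of these, 4 were upregulated and 2 downregulated in edgeR, beside 16.1% and 19.1% of all genes. Upregulated were *CCPG1* (1.99), *CALCOCO2* (0.80), *TOLLIP* (0.67), and *TAX1BP1* (0.59), and downregulated were *TEX264* (-0.96) and *PHB2* (-0.62). *OPTN*, which encodes optineurin, a receptor for ubiquitinated cargo such as damaged mitochondria, had untreated counts of 4925 and 4652 and treated counts of 15809 and 18400. Its log2 fold change was 2.09 ± 0.19 (adjusted p = 0.000105 in edgeR). *SQSTM1*, which encodes p62, a receptor that is itself degraded by autophagy, had untreated counts of 20193 and 14734 and treated counts of 52441 and 44859. It had a log2 fold change of 1.73 ± 0.18 (adjusted p = 0.000245). Since RNA and not protein was measured, these values do not say how much p62 was degraded. *NBR1*, a receptor with a domain structure like that of p62, had untreated counts of 6181 and 4833 and treated counts of 7026 and 6785. Its log2 fold change of 0.58 ± 0.16 (adjusted p = 0.0223) was the lowest of the 3, and the call was lost without untreated BT-16 (adjusted p = 0.0506) and without untreated CHLA-266 (adjusted p = 0.135). In treated cells, *SQSTM1* reached 120.4 and 114.6 CPM per kilobase in BT-16 and CHLA-266, at the 99.2th and 99.0th percentile of all genes.

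Of the 11 genes that start the autophagosome and supply its membrane, *ULK1*, *ATG14*, and *WIPI1* were upregulated. *ULK1*, the kinase at the head of the pathway, had untreated counts of 2047 and 1526 and treated counts of 3264 and 3045 (log2 fold change 1.08 ± 0.17, adjusted p = 0.00235 in edgeR). *ATG14*, the subunit that directs the Beclin lipid kinase complex to autophagy, had untreated counts of 1734 and 1746 and treated counts of 2833 and 3028 (1.00 ± 0.18, adjusted p = 0.00389). *WIPI1*, which binds the lipid made by that complex, had untreated counts of 169 and 95 and treated counts of 375 and 519 (2.04 ± 0.42, adjusted p = 0.00699). *WIPI1* is the scarcest of the 3, and 28.1% of its exon bases overlap a gene on either strand. Such overlap, which could shift counts where strand was not used in counting, covers 22.4% of the exon bases of *SQSTM1*, 21.5% of *CTSA*, and 31.7% of *CTSZ*. In *ATG9A*, 38.8% of the exon bases overlap a gene on the same strand, so its level is uncertain.

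The other 8 initiation genes did not pass the test. *ULK2*, the kinase most similar to *ULK1*, was the only one of the 11 with a negative log2 fold change, with untreated counts of 1156 and 867 and treated counts of 716 and 585 (-0.38 ± 0.24, adjusted p = 0.235 in edgeR). After scaling, both treated libraries still lay below both untreated ones. Per kilobase, *ULK1* exceeded *ULK2* by 2.29 and 2.28 times before and by 5.90 and 6.74 times after treatment. *RB1CC1*, which encodes the ULK1 scaffold FIP200, and *BECN1*, which encodes Beclin, were the most abundant of the group before treatment, between 13.6 and 15.8 CPM per kilobase. *RB1CC1* had untreated counts of 7325 and 7396 and treated counts of 7646 and 8343, and *BECN1* untreated counts of 6242 and 5359 and treated counts of 6567 and 6279. Their log2 fold changes were 0.37 and 0.40, and 0.47 for *ATG13*, the adaptor of the ULK complex. These 3 genes passed with the cell line as a block, with adjusted p values in edgeR of 0.0422, 0.0290, and 0.0124. Over all alternatives with the 4 libraries the adjusted p values ranged from 0.0109 to 0.0706 for *RB1CC1*, from 0.00536 to 0.0380 for *BECN1*, and from 0.00867 to 0.05 for *ATG13*, and *ATG13* also passed without treated BT-16 (0.58, adjusted p = 0.0321). The lipid transfer genes *ATG2A* and *ATG2B*, the scramblase gene *ATG9A*, and *WIPI2* had log2 fold changes from 0.03 to 0.31.

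None of the 5 conjugation genes was upregulated, and the group holds *ATG7*, which had the lowest log2 fold change of the 46. *ATG7*, the enzyme that activates both ubiquitin-like proteins of the pathway, had untreated counts of 1973 and 1793 and treated counts of 1227 and 989. Its log2 fold change was -0.52 ± 0.19 (adjusted p = 0.0634 in edgeR). *ATG3*, which passes ATG8 proteins on to the lipid, had untreated counts of 8364 and 8721 and treated counts of 5872 and 5276 (-0.37 ± 0.16, adjusted p = 0.100). Both genes lay lower in both treated libraries. With the cell line as a block, both were downregulated, with adjusted p values in edgeR of 0.0288 for *ATG7* and 0.0449 for *ATG3*. None of the other alternatives with the 4 libraries called them, with adjusted p values up to 0.501 and 0.903. *ATG16L1*, which places the conjugation on the membrane, had untreated counts of 3241 and 3072 and treated counts of 3539 and 3033 (0.30 ± 0.16, adjusted p = 0.157 in edgeR). *ATG5* and *ATG12*, whose products are joined to each other, had log2 fold changes of 0.13 and 0.12. The group median was 0.12, below the median of all genes but 0.29 above that of the genes that reached 10 counts in each library.

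*TFEB*, a transcription factor that drives lysosomal genes when it enters the nucleus, was low in all libraries. Untreated counts were 254 and 136 and treated counts 203 and 114, a log2 fold change of -0.05 ± 0.49 (adjusted p = 0.947 in edgeR) whose sign turned under other scalings. The untreated and treated values overlap, and the cell lines differ more than the conditions do. The related gene *MITF* was upregulated from 45 and 22 counts to 161 and 139 (2.43 ± 0.61, adjusted p = 0.0163 in edgeR), a call lost without untreated CHLA-266 (adjusted p = 0.0543). Its treated levels of 0.375 and 0.361 CPM per kilobase lay below the olfactory receptor level of the same libraries, 0.541 and 0.454, which was itself higher than in untreated cells. RNA levels do not show where these proteins are in the cell.

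**Figure D3:**
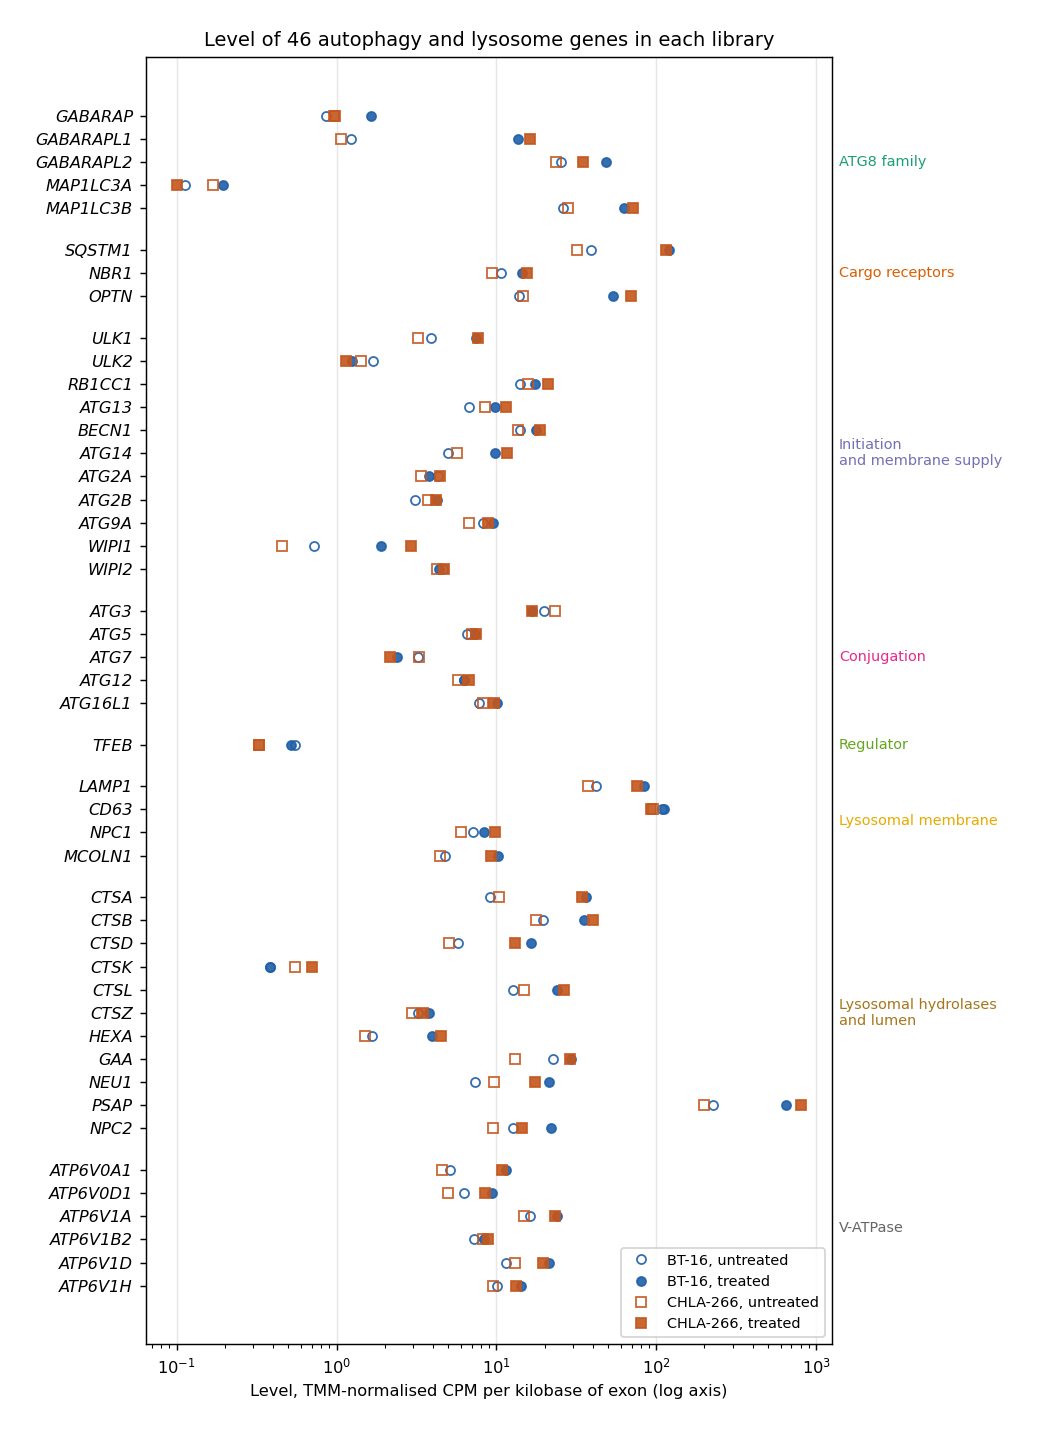
Level of each of the 46 genes in CPM per kilobase of exon on a logarithmic axis, with circles for BT-16, squares for CHLA-266, open symbols for untreated and filled symbols for treated cells. *PSAP* reaches 646.4 and 800.4 in treated cells at the right edge, *MAP1LC3A* lies lowest, and the filled symbols lie to the right of both open ones for 36 genes.

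Of the 4 lysosomal membrane genes, *LAMP1* and *MCOLN1* were upregulated. *LAMP1*, which encodes a major glycoprotein that lines the lysosome, had untreated counts of 16503 and 13189 and treated counts of 27787 and 22702 (log2 fold change 1.02 ± 0.17, adjusted p = 0.00243 in edgeR). *MCOLN1*, which encodes a calcium channel of the lysosome, had untreated counts of 1309 and 1080 and treated counts of 2326 and 1892 (1.07 ± 0.19, adjusted p = 0.00333). Their fold changes were alike in both cell lines, and their promoter windows are among the sequences printed above. *CD63*, a tetraspanin of late endosomes and lysosomes, was the most abundant of the group before treatment at 108.4 and 95.6 CPM per kilobase and was 112.1 and 92.5 after it. Its untreated counts were 18119 and 14259 and its treated counts 15696 and 11645, a log2 fold change of 0.00 ± 0.17 (adjusted p = 0.986 in edgeR), and 1 of its 8 promoter windows holds CACGTG. *NPC1*, the cholesterol exporter of the lysosomal membrane, had a log2 fold change of 0.47 (adjusted p = 0.0592). It passed with the block (adjusted p = 0.0159), with a range of 0.00521 to 0.0342 over the alternatives with the 4 libraries, and without treated BT-16 (0.57, adjusted p = 0.0348).

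Lysosomal hydrolases and their helper proteins in the lumen had 7 of 11 genes upregulated, with a group median log2 fold change of 1.03, and all 11 genes had positive values in both cell lines. *PSAP*, the precursor of the saposins that help hydrolases degrade sphingolipids, was the most abundant of the 46 genes in every library. Its untreated counts were 48739 and 37972 and its treated counts 116398 and 129572 (1.77 ± 0.19, adjusted p = 0.000326 in edgeR). Its level was 226.8 and 198 before and 646.4 and 800.4 CPM per kilobase after treatment, between the 99.2th and the 99.9th percentile of all genes. *CTSA*, a carboxypeptidase that also protects the sialidase encoded by *NEU1*, had the smallest adjusted p value of the group, with untreated counts of 5459 and 5484 and treated counts of 18203 and 15349 (1.86 ± 0.17, adjusted p = 0.000105). *GAA*, the acid glucosidase that degrades glycogen, was the next most abundant of the group in untreated BT-16 and had untreated counts of 8201 and 4226 and treated counts of 8943 and 7900. Its treated libraries lay close together while the untreated ones differed.

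The other upregulated genes of the lumen were *CTSD* with a log2 fold change of 1.44, *HEXA* with 1.41, *NEU1* with 1.19, *CTSB* with 1.03, and *CTSL* with 0.88, with adjusted p values in edgeR from 0.000589 to 0.00502. *CTSB*, *CTSD*, and *CTSL* encode the main endopeptidases of the lysosome, and *HEXA* a subunit of the enzyme that degrades gangliosides. *CTSB* had untreated counts of 14151 and 11420 and treated counts of 21595 and 22005. Overlap with other annotated genes covers 48.0% of the exon bases of *CTSD*. Not called were *GAA* (0.71, adjusted p = 0.0502 in edgeR) and *NPC2*, the lumenal partner of *NPC1* (0.70, adjusted p = 0.0516). Both passed with the block (0.000356 and 0.00167). The adjusted p values over the alternatives with the 4 libraries ranged from 0.000144 to 0.0373 for *GAA* and from 0.00167 to 0.0554 for *NPC2*. *GAA* also passed without untreated BT-16 (0.0066), without treated BT-16 (0.00717), and without treated CHLA-266 (0.0109), and *NPC2* without untreated BT-16 (0.0463) and without treated CHLA-266 (0.000523). *CTSZ* and *CTSK*, which encodes a collagen-degrading cathepsin of bone, had log2 fold changes of 0.23 and 0.22 and did not pass. *CTSK* was scarce, with 187 to 308 counts.

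The 6 cathepsin genes together had 50.7 and 51.3 CPM per kilobase before and 116.3 and 118.2 after treatment. As in the ATG8 family, the totals of both cell lines were close. *CTSA* made up 18.1% and 20.1% of the total before and 31.4% and 28.9% after.

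Of the 6 V-ATPase subunits, 5 were upregulated, with a group median log2 fold change of 0.63. *ATP6V0A1*, the membrane subunit that lets protons pass, had untreated counts of 4583 and 3640 and treated counts of 8529 and 7240 (1.19 ± 0.16, adjusted p = 0.000921 in edgeR). *ATP6V1A*, the subunit that hydrolyzes ATP, was the most abundant of the 6 per kilobase, with untreated counts of 7112 and 5758 and treated counts of 8693 and 7675 (0.60 ± 0.16, adjusted p = 0.0181). *ATP6V1D*, part of the central stalk, was next, with untreated counts of 3361 and 3438 and treated counts of 5259 and 4293 (0.73 ± 0.16, adjusted p = 0.00964). Treated libraries lay above untreated ones for all 6 after scaling. *ATP6V0D1* had a log2 fold change of 0.67 (adjusted p = 0.0187) and *ATP6V1H*, a regulatory subunit, of 0.48 (adjusted p = 0.0405). *ATP6V1B2*, the partner of *ATP6V1A*, had a log2 fold change of 0.14 (adjusted p = 0.484).

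Except for that of *ATP6V0A1*, each of these calls was lost when some library was left out. Without untreated CHLA-266 the edgeR adjusted p values were 0.121 for *ATP6V0D1*, 0.111 for *ATP6V1A*, and 0.174 for *ATP6V1H*. Without untreated BT-16 they were 0.0538 for *ATP6V1A*, 0.0600 for *ATP6V1D*, and 0.108 for *ATP6V1H*. *ATP6V1H* was also lost without treated BT-16 (0.131) and without treated CHLA-266 (0.0510). The log2 fold changes stayed between 0.43 and 0.84 for these 4 genes.

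Of the 17 other V-ATPase genes, 4 were upregulated and 3 downregulated, beside 16.1% and 19.1% of all genes, so these counts were near the background. *ATP6V0E1* (0.64), *ATP6V1C1* (0.75), *ATP6V1E1* (0.79), and *ATP6V1G1* (0.70) were upregulated, with edgeR adjusted p values from 0.00968 to 0.0143. *ATP6V0A2* had untreated counts of 6508 and 5980 and treated counts of 2497 and 3162 (-0.88 ± 0.19, adjusted p = 0.00923 in edgeR). *ATP6V0E2* had untreated counts of 2391 and 1499 and treated counts of 950 and 874 (-0.83 ± 0.23, adjusted p = 0.0231), and *ATP6V1E2* untreated counts of 634 and 464 and treated counts of 265 and 181 (-1.05 ± 0.34, adjusted p = 0.0401). Of the 8 alternatives with the 4 libraries, all kept the call of *ATP6V0A2*, 5 that of *ATP6V0E2* (adjusted p up to 0.121), and 3 that of *ATP6V1E2* (up to 0.141). Without untreated BT-16 the calls of *ATP6V0E2* (adjusted p = 0.176), *ATP6V1E2* (0.150), *ATP6V1C1* (0.0899), *ATP6V1E1* (0.0713), and *ATP6V1G1* (0.0563) were lost, without untreated CHLA-266 those of *ATP6V1E2* (0.0660) and *ATP6V0E1* (0.0842), and without treated CHLA-266 that of *ATP6V1E2* (0.151). Each of the 3 downregulated genes encodes a form of a subunit of which another form was upregulated. Per kilobase, the ratio of *ATP6V0A1* to *ATP6V0A2* was 0.937 and 0.810 before and 4.54 and 3.05 after treatment. Their lengths, 12938 and 17214 bases, count all annotated exons, so ratios near 1 do not set an order between the 2 genes. A further form of the same subunit, *TCIRG1*, was not called (0.07). It had 8.22 and 6.90 CPM per kilobase before treatment, over a shorter merged length of 4598 bases. The ratio of *ATP6V0E1* to *ATP6V0E2* was 6.44 and 8.44 before and 19.4 and 20.9 after, and that of *ATP6V1E1* to *ATP6V1E2* was 17.0 and 25.5 before and 71.0 and 79.4 after. These pairs were chosen after their values were seen, and their ratios were not tested.

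**Figure D4:**
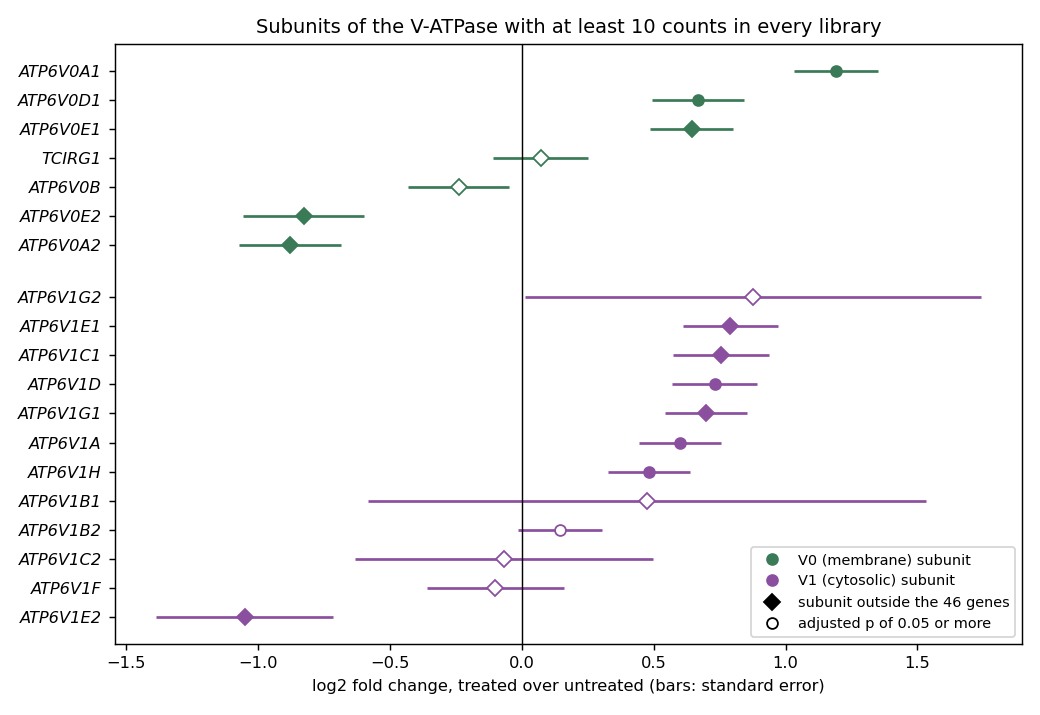
log2 fold change, treated over untreated, of the V-ATPase subunit genes that reached 10 counts in each library, with standard errors as bars, the membrane part V0 above and the cytosolic part V1 below. Circles are subunits among the 46 genes, diamonds are other subunits, and filled symbols passed an adjusted p value of 0.05. In V0, 3 filled symbols lie above and 2 below 0, and in V1, 6 above and 1 below.

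Beyond the 46, 125 other genes of the pathway, listed by function, were measured. In edgeR, 37 were upregulated and 16 downregulated, beside 16.1% and 19.1% of all genes. Their median log2 fold change was 0.29. Under the block for the cell line these counts were 43 and 25, beside 17.9% and 23.7% of all genes. The split depends on the scaling, with 55 upregulated and 4 downregulated under upper-quartile normalization and 48 and 8 under library totals. The shares of all genes moved likewise, to 24.1% upregulated and 10.5% downregulated with the upper quartile and to 20.4% and 13.0% with totals. Among the upregulated genes of smallest adjusted p value in edgeR were *GNPTG*, a subunit of the enzyme that tags hydrolases for the lysosome (log2 fold change 1.66, adjusted p = 0.000332), and *TPP1*, a lysosomal peptidase (1.76, adjusted p = 0.000369). Overlap with a gene on either strand covers 50.6% of the exon bases of *GNPTG*. Among the downregulated ones were *SORT1*, which encodes a receptor that sorts proteins to the lysosome (-1.56, adjusted p = 0.000251), and the hydrolase gene *GUSB* (-1.32, adjusted p = 0.000895). Among the 32 other hydrolase and lumen genes, 13 were upregulated and 6 downregulated, the latter near the 19.1% of all genes. None of the 11 among the 46 was downregulated. Of the 19 other regulators, 6 were upregulated and 2 downregulated, beside 16.1% and 19.1% of all genes, so downregulated regulators were not above the background. These 2 were *MTOR*, the kinase that restrains autophagy (-0.53, adjusted p = 0.0266 in edgeR), and *LAMTOR1*, which anchors its activator to the lysosome (-0.59, adjusted p = 0.0388). The 6 upregulated regulators were *FOXO1* (2.79), *MITF* (2.43), *FOXO3* (1.20), *TSC1* (0.96), *RRAGC* (0.94), and *LAMTOR3* (0.81), so the regulators did not move in 1 direction. Of the 8 alternatives with the 4 libraries, 5 kept the call of *MTOR* (adjusted p up to 0.335) and 3 that of *LAMTOR1* (up to 0.318). *MTOR* lost its call whichever library was left out (adjusted p from 0.0609 to 0.102 in edgeR), and *LAMTOR1* without untreated BT-16 (0.238) or treated CHLA-266 (0.0897).

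Both cell lines had most of the 46 genes higher after treatment, 39 in BT-16 and 40 in CHLA-266. The log2 ratio of scaled counts within a cell line had a median of 0.57 in BT-16 and 0.58 in CHLA-266. Some sizes differed. *WIPI1* had a ratio of 1.40 in BT-16 (95% interval 1.14 to 1.68) and 2.69 in CHLA-266 (2.38 to 3.03), *GAA* 0.38 (0.34 to 0.42) and 1.15 (1.09 to 1.20), and *NEU1* 1.54 (1.47 to 1.61) and 0.85 (0.79 to 0.92). *PSAP* had ratios of 1.51 and 2.02, and *GABARAP* 0.93 (0.59 to 1.28) and 0.03 (-0.37 to 0.43). The exact intervals hold counting error alone, and would be too narrow had both reads of a pair been counted. With 1 library per cell line and condition, the difference in response between the cell lines could not be tested.

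**Figure D5:**
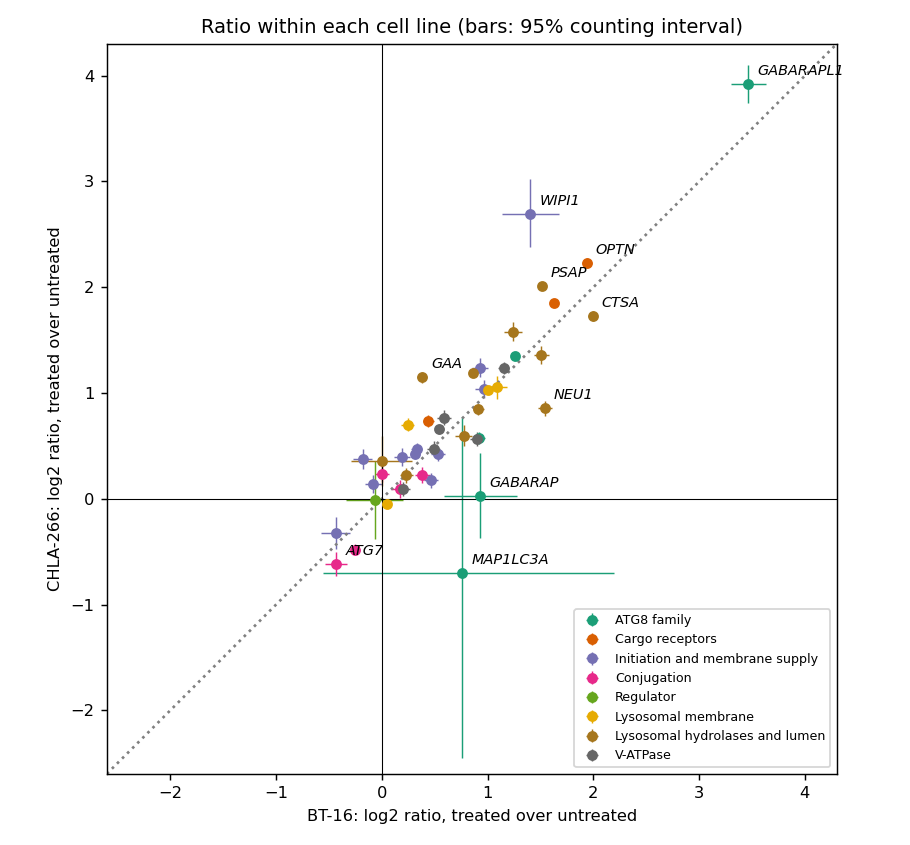
Treated over untreated counts as a log2 ratio for each of the 46 genes in BT-16 (horizontal axis) and CHLA-266 (vertical axis), colored by group, with 95% counting intervals as bars and a dotted line of equal ratios. Most genes lie near the line at the upper right, *WIPI1* and *GAA* above it, and *NEU1* and *GABARAP* below it.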

How the data were processed

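RNA-seq libraries of 2 cell lines, untreated and treated, were compared. The authors demultiplexed reads with bcl2fastq 2.20, trimmed them, aligned them to hg38 with STAR, and removed genes of the sex chromosomes; counting settings are not given in the sources used here. The deposited estimated counts per gene symbol were not normalized, and 5 values in 2 genes were rounded to whole numbers. The authors also deposited log2 values from a variance-stabilizing transformation, used only as an alternative. Of 18449 symbols, 383 without counts were left out.

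Conditions were compared with edgeR 4.0.16 in R 4.3.3 by its quasi-likelihood test after TMM scaling, with p values adjusted over 18066 genes by Benjamini-Hochberg, a threshold of 0.05, and no term for the cell line. Libraries are paired by cell line: deviations from condition means correlated at 0.254 across 12620 genes. Alternatives were a block for that pairing, DESeq2 1.42.0 (both ways), DESeq2 size factors, upper-quartile and total scaling, at least 10 counts in every library, limma 3.58.1 on the log2 values, and each library left out. Medians relative to genes with at least 10 counts were added after seeing the data. Within a cell line, log2 ratios had 0.5 counts added and exact 95% intervals. Levels per kilobase used merged exons of GENCODE 44. Promoter sequences come from RefSeq on GRCh38.p14. Tests were also run on simulated data with less spread than the main fit estimated and far fewer changed genes. That run does not give their error rates in these data.

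The genes and lists were chosen with earlier results of these data known. Values in every library are given for ATG8 genes, cargo receptors, *TFEB*, and in other groups the genes of smallest adjusted p value per direction and the 2 highest per length; of other pathway genes, the 3 of smallest adjusted p value per direction were to be named, of which 1 per direction is not reported here. Further genes were named after their values were seen.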

Additional observations from a re-analysis of the deposited data

Results flagged for a closer look

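In 5 of the 46 genes the untreated-to-treated change had opposite directions in BT-16 and CHLA-266, a difference that was not tested, since no line had replicate libraries. The log2 ratio in BT-16 minus that in CHLA-266 was 1.46 for *MAP1LC3A* (0.76 and -0.70), -0.56 for *ATG2A* (-0.18 and 0.38), -0.22 for *WIPI2* (-0.08 and 0.14), -0.23 for *ATG12* (-0.000255 and 0.23), and 0.0946 for *CD63* (0.05 and -0.05). Counting intervals excluded 0 in both cell lines for *ATG2A*, *WIPI2*, and *CD63*, and with halved counts for *ATG2A* alone. *MAP1LC3A* rests on 6 to 13 counts per library.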

How the results depend on the processing

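Leaving out 1 library gave 18 to 24 upregulated and 0 downregulated genes of the 46, and 24 to 35 upregulated and 7 to 18 downregulated other pathway genes. With the cell line as a block, 2 of the 46 and 25 of the 125 other pathway genes were downregulated, beside 23.7% of all genes. Upper-quartile scaling gave 35 upregulated of the 46, beside 24.1% of all genes. Downregulated other pathway genes numbered 4 with the upper quartile, 8 with library totals, and 9 of 114 with the filter of 10 counts in every library. Of all genes tested in these fits, 10.5%, 13.0%, and 20.2% were downregulated. Scaling shifted all log2 fold changes: the median over all genes tested was 0.24 as reported, 0.59 with upper-quartile scaling, 0.46 with totals, and 0.31 with DESeq2 size factors. Over the 12620 genes that pass the filter it was -0.18 as reported and 0.01 with the filter. With the upper quartile, totals, and the filter, in this order, group medians were 2.08, 1.96, and 1.92 for cargo receptors, 0.71, 0.59, and 0.55 for initiation, 0.46, 0.34, and 0.30 for conjugation, 1.09, 0.97, and 0.93 for lysosomal membrane, 1.38, 1.25, and 1.21 for the lumen, and 0.98, 0.87, and 0.82 for the V-ATPase. The ATG8 median was 1.12 with the upper quartile and 1.22 with the filter. DESeq2 and its size factors gave 0.44 for initiation, 0.18 for conjugation (also with block), and 0.70 for the V-ATPase (0.71 with block, 0.67 with limma). Without single libraries these medians spanned 0.31 to 0.46, 0.05 to 0.14, and 0.52 to 0.69, respectively. The sign of *TFEB* turned to 0.03 with DESeq2, its block, and its size factors, 0.31 with the upper quartile, 0.20 with totals, 0.15 with the filter, and 0.01 with limma, and ranged from -0.42 to 0.37 without single libraries. Such ranges also crossed 0 for *MAP1LC3A* (-0.49 to 0.47), *ATG2A* (-0.07 to 0.27), *WIPI2* (-0.03 to 0.10), *CD63* (-0.14 to 0.15), and *CTSK* (-0.27 to 0.59). Adding 5 counts or halving counts left all 92 ratios within cell lines within their intervals. Halving applies to both counts of a ratio, so it widens the interval but could hardly move the ratio. The cause of these changes was not tested. Where single libraries were left out, the lone library of a condition was assumed to vary like the others. With 2 libraries per condition, genes that did not pass are not shown to be unchanged.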
